A study of Homo sapiens with 6 samples.

Results

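The kinesin motor family was compared between SiHa cells that received a BRCA1 expression plasmid and SiHa cells that received the empty plasmid. Members were all protein-coding genes of GENCODE release 29 whose symbol is KIF followed by a number and at most 1 letter from A to C, or KIFC1, KIFC2 or KIFC3, and this rule used no expression value. It found 42 genes among the 58174 genes in the table. SiHa is an established human cell line that was grown from a cervical squamous cell carcinoma. In the OV-BRCA1 group 3 samples were transfected with the plasmid GV230-BRCA1, and in the NC group 3 samples were transfected with GV230, by a Lipofectamine reagent. RNA was taken after 48 h, so both groups carried the vector backbone and the reagent. A transfected dish holds cells with and without plasmid, and the sources used here do not say which share took it up or which promoter drives BRCA1. The study's methods call the 3 samples of a group biological replicates, so the p-values measure the spread between these samples of 1 cell line.

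Kinesins are ATP-driven motors that walk along microtubules or take their ends apart. One set builds the mitotic spindle, moves and aligns chromosomes and divides the cytoplasm, and its genes are transcribed mainly in G2 and M phase. The other large set carries vesicles, organelles and protein complexes in cells of any phase, and smaller sets serve cilia or regulate microtubules and signalling. By these textbook roles 14 members were listed as mitotic, 14 as transport, 7 as cilium-linked and 7 as other kinesins.

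The labels were checked first on BRCA1. Its level, as FPKM summed over transcripts (fragments per kilobase of transcript, scaled to the mapped fragments of the sample), was 35.7, 40.8 and 34.9 in the OV-BRCA1 samples and 20.1, 14.9 and 21.7 in the NC samples. The groups were separate, and the log2 fold change was 0.95 (SE 0.14, limma, Benjamini-Hochberg adjusted p = 0.00373). Mapped depth, estimated from the low values, ran from 14.2 to 16.7 M fragments in OV-BRCA1 samples and from 16.04 to 20.0 M in NC samples. Mitochondrial transcripts held 14.8% to 17.3% of the summed FPKM in the OV-BRCA1 samples and 21.0% to 23.2% in the NC samples, and the part of this difference in the results below was not tested. Scaling to nuclear protein-coding genes, which removes that share, left the calls of all 31 tested kinesins as they were. Of 6 squamous epithelial markers, KRT17 and SFN were at 1 FPKM or more in every sample, KRT6A averaged 1.09 FPKM in OV-BRCA1 and 0.173 in NC samples, and the defining markers KRT5, KRT14 and TP63 were too low to be tested. The 6 summed to 1080 to 1250 FPKM in OV-BRCA1 and 1560 to 1580 in NC samples, mostly from KRT17, and the part of this in the results below was not tested either. Of 8 markers of other cell types, PTPRC and VWF were at 0 in all samples. PECAM1 averaged 1.02 FPKM in OV-BRCA1 and 0.703 in NC samples, and SNAP25 averaged 0.593 and 0.419. The 8 together summed to 1.17 to 2.36 FPKM in the OV-BRCA1 group and 1.22 to 2.24 in the NC group.

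The promoters show how the mitotic and the transport kinesins differ in sequence. Genes of G2 and M phase often carry a CHR element (cell cycle genes homology region, searched as TTTGAA), which the DREAM and MYB-MuvB complexes bind, together with CCAAT boxes bound by NF-Y. The 8 stretches below run 5′ to 3′ on the strand of the gene from 80 bases before to 10 bases after the RefSeq start nearest the annotated gene start (RefSeq, GRCh38.p14). Capitals mark matches of CCAAT and of the CHR on either strand. KIF11, KIF4A, KIF14 and KIF18B are shown as mitotic kinesins with both motifs, KIF2C as a mitotic kinesin with neither, and KIF1C, KIF13A and KIF3B as transport kinesins with different expression results.
KIF11: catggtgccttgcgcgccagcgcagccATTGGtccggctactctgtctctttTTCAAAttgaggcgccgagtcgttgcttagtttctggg
KIF4A: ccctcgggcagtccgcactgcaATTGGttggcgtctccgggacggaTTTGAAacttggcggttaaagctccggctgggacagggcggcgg
KIF14: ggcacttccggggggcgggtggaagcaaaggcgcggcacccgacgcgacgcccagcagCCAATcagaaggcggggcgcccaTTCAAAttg
KIF18B: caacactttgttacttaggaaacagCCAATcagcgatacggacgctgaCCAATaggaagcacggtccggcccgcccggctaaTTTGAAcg
KIF2C: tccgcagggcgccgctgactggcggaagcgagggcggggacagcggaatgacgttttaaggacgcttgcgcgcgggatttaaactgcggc
KIF1C: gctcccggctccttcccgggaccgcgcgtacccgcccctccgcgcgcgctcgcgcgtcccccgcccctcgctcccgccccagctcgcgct
KIF13A: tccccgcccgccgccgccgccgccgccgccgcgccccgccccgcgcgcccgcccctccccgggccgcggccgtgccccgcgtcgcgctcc
KIF3B: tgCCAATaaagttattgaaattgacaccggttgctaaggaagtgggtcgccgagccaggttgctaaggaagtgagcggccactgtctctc
They lie at chr10:92593050-92593139 (plus strand) for KIF11, chrX:70290024-70290113 (plus strand) for KIF4A, chr1:200620742-200620831 (minus strand) for KIF14, chr17:44947764-44947853 (minus strand) for KIF18B, chr1:44739757-44739846 (plus strand) for KIF2C, chr17:4997870-4997959 (plus strand) for KIF1C, chr6:17987626-17987715 (minus strand) for KIF13A and chr20:32277571-32277660 (plus strand) for KIF3B. In KIF11 and KIF4A a CCAAT box stands upstream of the CHR, and both lie before the start. In KIF14 and KIF18B the CHR lies at the RefSeq start itself. The GENCODE starts of these 2 genes lie downstream of it, at chr1:200620734 for KIF14 and chr17:44947711 for KIF18B.

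Over the full window of 250 bases before to 50 after the start, 34 of the 42 members had a promoter in the table, and both strands were searched. The last 40 bases of the window were found in a transcript of the same gene for 20 of these 34. The transport kinesins without a promoter were KIF5A, KIF13B, KIFC2 and KIFC3. The transport shares thus leave out KIFC2, which fell, and KIFC3, which rose. TTTGAA was found in 10 of 14 mitotic promoters (71.4%) and in 1 of 10 transport promoters (10.0%), that of KIF5B, against 12.0% of 14877 protein-coding promoters. CCAAT was found in 11 of 14 mitotic (78.6%) and 3 of 10 transport promoters (30.0%), against 36.4% of all. Both occurred together in 9 of 14 mitotic promoters (64.3%), in 1 of 10 transport promoters and in 5.04% of all. None of the 5 cilium-linked or 5 other promoters held TTTGAA. The core of the CDE element that often sits beside a CHR, searched as GGCGG, was in all 34 of these promoters and in 75.2% of all, so it did not separate the sets. A match is a description of letters and not a bound site.

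**Figure D1:**
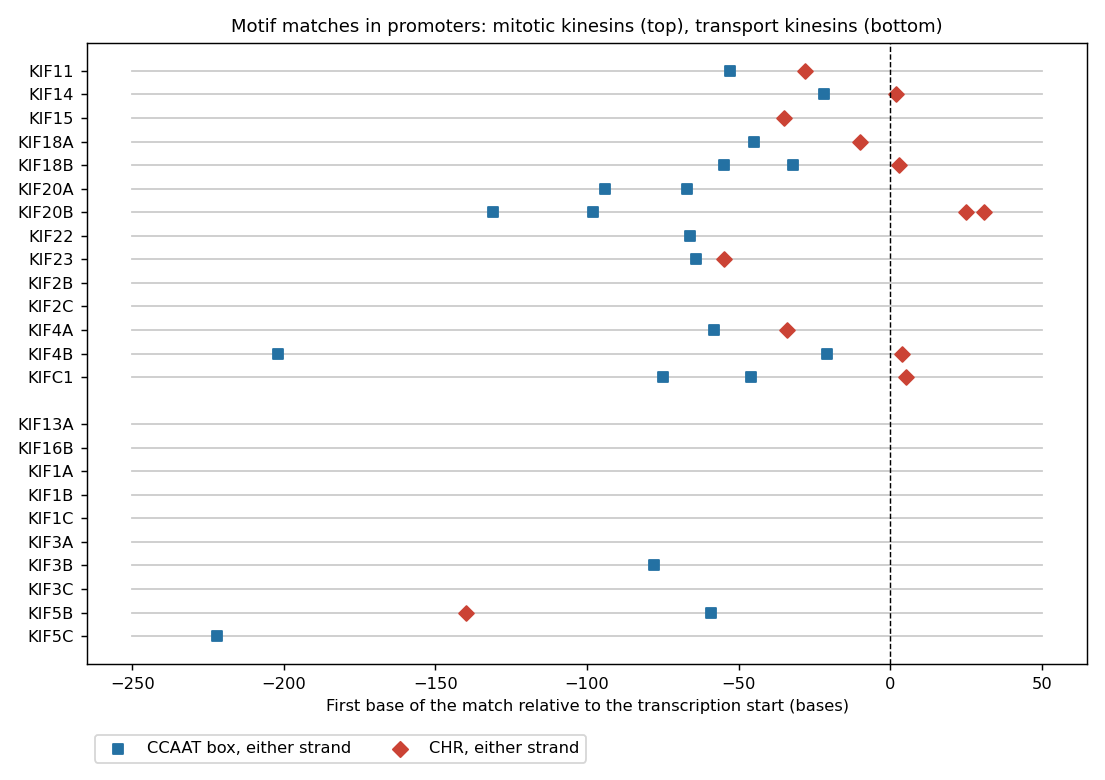
Position of each CCAAT (squares) and TTTGAA (diamonds) match, in bases from the RefSeq transcription start, in the promoters of 14 mitotic kinesins (upper rows) and 10 transport kinesins (lower rows), where the grey line is the window searched. Each CHR match of a mitotic kinesin lies within 55 bases of the start and the one transport match, in KIF5B, lies 140 bases before it.

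Of the 42 kinesins 31 passed the expression filter, which asked for 0.5 FPKM or more in 3 or more samples, and none passed through 1 group only. In OV-BRCA1 cells 17 of the 31 fell, 2 rose and 12 did not pass the test at an adjusted p of 0.05, while over all 16321 genes tested 18.9% fell and 16.4% rose. The median log2 fold change, on the scale of log2(FPKM + 1), was -0.35 over the kinesins and -0.04 over all genes. In 17 kinesins every OV-BRCA1 sample lay below every NC sample and in 3 every one lay above. Such separation was found in 50.8% of all genes, 27.4% below and 23.4% above. At the stricter rule that adds an absolute log2 fold change above 1, KIFC1 was the 1 kinesin left, against 3.99% of all genes, 1.10% lower and 2.89% higher. KIF20A lay just short of it, at a log2 fold change of -0.98, and passed as well without OV-BRCA1 replicate 1 (-1.08) or without NC replicate 1 (-1.03), which made 2 kinesins. The study set the same thresholds for its DESeq test, and its downregulated genes include KIF18B and KIF22 beside KIFC1. In the limma fit used here KIF18B was at -0.88 and KIF22 at -0.74, short of the fold threshold. In bulk RNA, fewer cells in G2 or M phase and less mRNA per cell cannot be told apart.

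**Figure D2:**
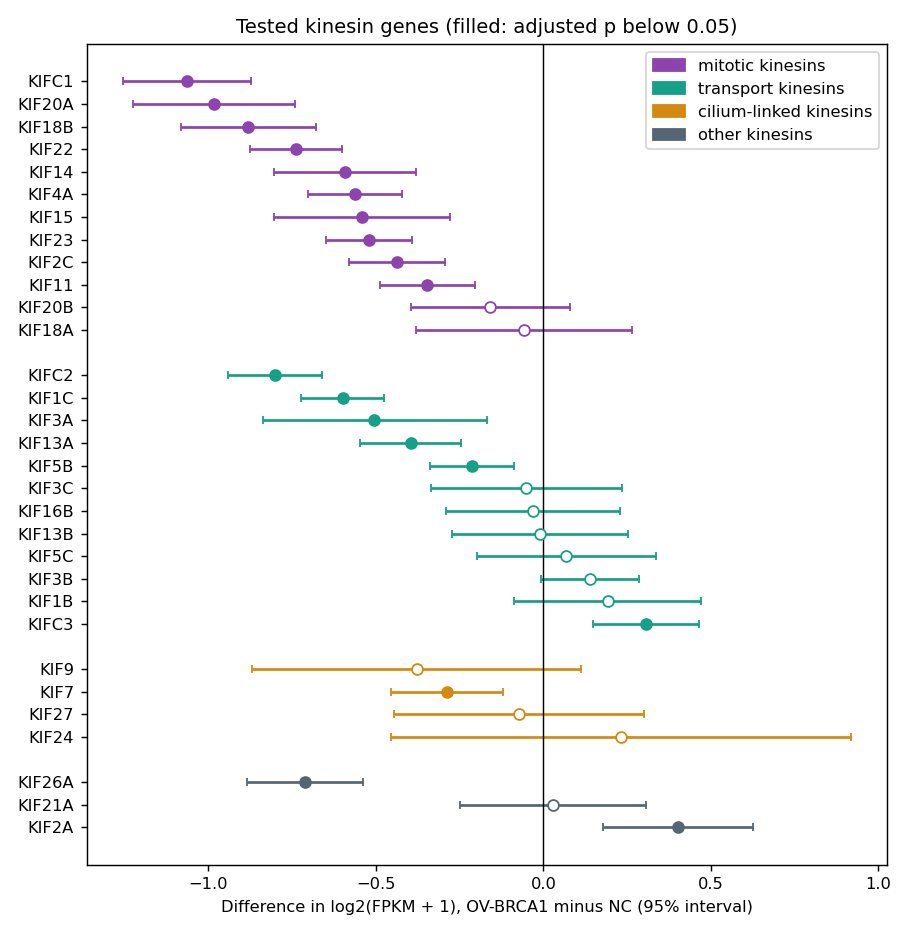
Difference in log2(FPKM + 1) between OV-BRCA1 and NC for the 31 tested kinesins, with 95% intervals, grouped by role, where filled points passed limma's test at an adjusted p below 0.05. All 12 mitotic points lie left of 0, from -1.06 to -0.06, while the 12 transport points run from -0.80 to 0.31.

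Most mitotic kinesins were lower. Of 12 tested members 10 fell, none rose, and the remaining 2 were also below 0, with a median log2 fold change of -0.55. KIF2A and KIF24, which act in mitosis and outside it, were not listed as mitotic. With them added, 10 of 14 fell, 1 rose (KIF2A) and the median was -0.53. The tested transport kinesins, also 12, held 5 that fell, 1 that rose and 6 that did not pass, with a median of -0.04. Without OV-BRCA1 replicate 1, OV-BRCA1 replicate 3 or NC replicate 3, 3 transport kinesins fell, while 10 mitotic kinesins fell in every such fit. These are counts beside the background above, and the difference between the role groups was not tested because members are not replicates. The 14 mitotic genes summed to 235, 227 and 217 FPKM in the OV-BRCA1 samples and to 356, 353 and 360 in the NC samples, or 227 ± 8.87 against 356 ± 3.45 (SD, n = 3 each), a ratio of 0.636. The 14 transport genes summed to 176 ± 2.15 against 189 ± 7.54 FPKM, a ratio of 0.932. KIFC3, which rose, alone held 78.0 of the 176 and 63.0 of the 189 FPKM. The transport sum and the shares and ratio drawn from it thus depend strongly on 1 gene. In NC cells the mitotic motors held 59.0% to 60.0% of all kinesin FPKM, and in OV-BRCA1 cells 49.2% to 51.3%. The ratio of mitotic to transport FPKM was 1.29 ± 0.0651 in OV-BRCA1 and 1.89 ± 0.0563 in NC samples, with no overlap. The whole family summed to 452 ± 8.57 FPKM in OV-BRCA1 and 598 ± 10.9 in NC samples.

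**Figure D3:**
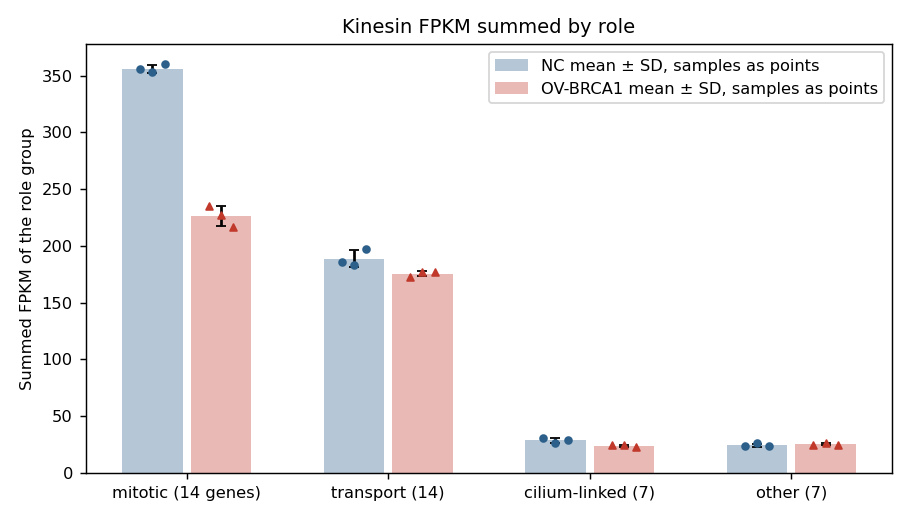
Summed FPKM of the kinesins of each role, with bars for the mean, error bars for the SD and points for the 3 samples of each group. The mitotic bar drops from 356 to 227 while the transport bars stand at 189 and 176.

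KIFC1, KIF11 and KIF15 set up the bipolar spindle. KIFC1 (ENSG00000237649, chr6:33391536-33409924), a minus-end-directed motor that focuses spindle poles and clusters extra centrosomes, was at 20.0, 17.9 and 16.8 FPKM in OV-BRCA1 and 37.0, 39.3 and 40.9 in NC samples. The OV-BRCA1 mean was 0.466 of the NC mean, the groups were far apart, and the log2 fold change was -1.06 (SE 0.08, limma adjusted p = 0.000244), the lowest of the 31 tested kinesins. KIF11 (Eg5), the bipolar motor that pushes the poles apart, was at 16.3, 17.8 and 16.4 against 21.3, 22.02 and 21.6 FPKM, a change of -0.35 (SE 0.06, adjusted p = 0.00579). The KIF11 groups were separate, but its fall was the smallest among the 10. KIF15, which backs up KIF11, was at 5.95, 5.44 and 5.22 against 9.97, 7.74 and 7.95 FPKM, a change of -0.54 (SE 0.11, adjusted p = 0.0112). Its highest NC sample, NC replicate 1, differed from the others in transcript make-up, since 5.99 FPKM there were placed on KIF15-203, which was at 0 in the other 5 samples.

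KIF22, KIF4A, KIF18A, KIF18B and KIF2C act on chromosomes and on microtubule ends. KIF22, a chromokinesin that pushes chromosome arms toward the equator, was at 28.8, 26.1 and 27.1 FPKM in OV-BRCA1 and 46.1, 45.1 and 47.6 in NC samples, with a log2 fold change of -0.74 (SE 0.06, adjusted p = 0.000275). KIF4A, which binds chromosome arms and sets the length of the central spindle with PRC1, was at 13.3, 13.6 and 12.7 against 20.4, 19.3 and 20.3 FPKM, a change of -0.56 (SE 0.06, adjusted p = 0.0009). KIF18B, which trims astral microtubules, was at 12.7, 14.2 and 11.4 against 24.2, 23.9 and 24.7 FPKM, a change of -0.88 (SE 0.08, adjusted p = 0.000647). In all 3 the samples of the groups were far apart compared with the spread within them. KIF2C (MCAK), a depolymerase that corrects faulty kinetochore attachments, was at 38.3, 37.7 and 35.3 against 49.3, 48.9 and 53.5 FPKM, a change of -0.44 (SE 0.06, adjusted p = 0.00261). KIF18A, which dampens chromosome movements at the metaphase plate, was at 7.02, 7.51 and 6.73 against 8.30, 8.30 and 5.89 FPKM. The KIF18A groups overlapped, and the 95% interval of its log2 difference, -0.38 to 0.26, includes falls of the size seen in KIF11 (adjusted p = 0.764). KIF2B was listed at 0 in all samples, and KIF4B, a near-identical retrocopy of KIF4A, reached at most 0.0193 FPKM, a level at which reads of KIF4A placed on it cannot be told from its own.

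KIF23, KIF20A, KIF14 and KIF20B act at the central spindle and in cytokinesis. KIF23 (MKLP1), the motor of centralspindlin, had the highest level of the mitotic kinesins at 55.5, 52.4 and 51.4 FPKM in OV-BRCA1 and 79.3, 73.7 and 76.7 in NC samples, with a log2 fold change of -0.52 (SE 0.05, adjusted p = 0.000845). KIF20A (MKLP2), which brings the chromosomal passenger complex to the midzone, was at 25.0, 20.3 and 20.7 against 41.3, 48.4 and 43.5 FPKM, a change of -0.98 (SE 0.10, adjusted p = 0.000858). KIF14, which brings citron kinase to the midbody, was at 4.94, 5.85 and 4.78 against 8.25, 8.12 and 8.53 FPKM, a change of -0.59 (SE 0.09, adjusted p = 0.00346). In these 3 genes all OV-BRCA1 samples lay below all NC samples. KIF20B (MPP1), which acts late in cytokinesis, was at 7.39, 8.28 and 8.89 against 10.3, 8.63 and 8.84 FPKM, so the groups overlapped. Its interval ran from -0.39 to 0.08 (adjusted p = 0.258).

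**Figure D4:**
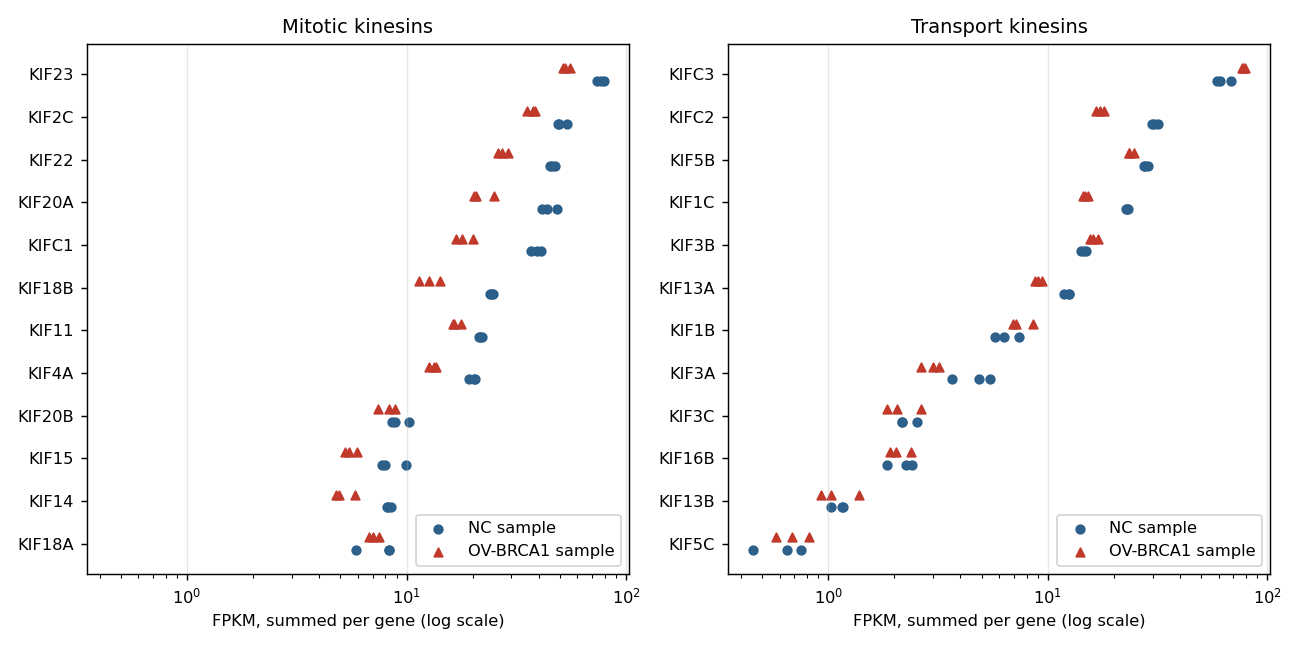
FPKM summed per gene (log scale) in each sample for the 12 tested mitotic and the 12 tested transport kinesins, with circles for NC and triangles for OV-BRCA1 samples. Triangles lie wholly to the left of circles in 10 mitotic and 5 transport genes and wholly to the right in KIFC3 and KIF3B.

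The promoter motifs did not divide the mitotic kinesins that fell from those that did not. KIF18A and KIF20B, the 2 that did not pass, both had TTTGAA and CCAAT. KIF20A, KIF22 and KIF2C, which lacked TTTGAA, all fell, and their median log2 fold change was -0.74 against -0.54 in the 9 tested members with it. Over all tested protein-coding genes with a promoter, 24.2% of the 388 with both motifs fell, 18.9% of the 5615 with neither fell and 19.4% of all 9703 fell. Of the same genes, 15.7% of those with both, 18.1% of those with neither and 18.1% of all rose. Of the 500 with TTTGAA and no CCAAT, 15.8% fell and 21.0% rose. With the kinesins left out, 23.0% of 379 fell.

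Among the transport kinesins, the kinesin-1, kinesin-2 and kinesin-3 families each held members that did not pass. Kinesin-1 heavy chains carry mitochondria, vesicles and mRNA. KIF5B, their ubiquitous form, was at 23.6, 24.8 and 23.5 FPKM in OV-BRCA1 and 27.4, 28.6 and 27.8 in NC samples, a log2 fold change of -0.21 (SE 0.05, adjusted p = 0.0215), and this call was lost in 4 of 6 fits that each left out 1 sample (adjusted p = 0.0584 to 0.0677), all but those without OV-BRCA1 replicate 2 or NC replicate 1. KIF5C was below 1 FPKM in every sample (log2 fold change 0.07, 95% interval -0.20 to 0.34, adjusted p = 0.665). The neuronal form KIF5A did not exceed 0.158 FPKM.

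Kinesin-2 motors pair KIF3A with KIF3B or KIF3C and serve both intracellular transport and cilia. KIF3A was at 2.66, 3.21 and 3.001 FPKM in OV-BRCA1 and 4.85, 3.65 and 5.44 in NC samples, a change of -0.50 (SE 0.14, adjusted p = 0.0326). This call was lost in 5 of 6 fits that each left out 1 sample (adjusted p = 0.0583 to 0.0919), the exception being the fit without NC replicate 2. Its main protein-coding transcript, KIF3A-202, was at 2.02, 1.90 and 2.10 against 2.20, 2.59 and 1.35 FPKM, whereas KIF3A-206, a 731-base transcript annotated as non-coding, was at 0.0448, 0.131 and 0.595 against 2.02, 0.255 and 2.71. The coding transcript overlapped between groups, and the high NC gene values were those of the samples with a high non-coding one. KIF3B, its partner, lay at 16.1, 16.9 and 15.5 FPKM against 14.7, 14.1 and 15.0, separate and higher in OV-BRCA1 but not past the test (0.14, 95% interval -0.01 to 0.29, adjusted p = 0.124). KIF3C had overlapping groups (-0.05, adjusted p = 0.764).

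Kinesin-3 motors move vesicles, endosomes and lysosomes over long distances. KIF1C, which carries vesicles and integrins, was at 14.8, 15.2 and 14.5 FPKM in OV-BRCA1 and 23.2, 23.0 and 22.8 in NC samples, a change of -0.60 (SE 0.05, adjusted p = 0.000435). KIF13A, a motor of recycling endosomes, was at 8.997, 8.78 and 9.46 against 12.4, 11.9 and 12.5 FPKM, a change of -0.40 (SE 0.06, adjusted p = 0.00437). Both had spreads within groups that were small beside the gap between them. KIF1B (0.19, 95% interval -0.09 to 0.47), KIF13B (-0.01, -0.27 to 0.25) and KIF16B (-0.03, -0.29 to 0.23) did not pass the test (adjusted p = 0.245, 0.951 and 0.844), and the neuronal KIF1A did not exceed 0.0277 FPKM. KIF1B had the transcripts KIF1B-205 higher in OV-BRCA1 (4.80, 4.32 and 5.07 against 3.33, 3.56 and 4.21 FPKM) and KIF1B-204 lower (1.58, 1.45 and 1.51 against 1.91, 1.83 and 2.07), both without overlap and neither tested alone.

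The non-mitotic C-terminal motors moved in opposite directions. KIFC2 (ENSG00000167702, chr8:144466043-144474202), known mainly from neurons, was at 16.5, 18.0 and 17.2 FPKM in OV-BRCA1 and 30.4, 29.8 and 31.9 in NC samples, a change of -0.80 (SE 0.06, adjusted p = 0.000224). KIFC3 (ENSG00000140859, chr16:57758217-57863053), which acts at adherens junctions and in Golgi positioning, had the highest level of the transport kinesins at 77.8, 76.6 and 79.5 against 61.1, 59.2 and 68.6 FPKM, a change of 0.31 (SE 0.07, adjusted p = 0.0135). The groups were separate in both genes. The KIFC2 change was further below 0 than that of 9 of the 12 tested mitotic kinesins and was seen in its main transcript, KIFC2-201, at 13.1, 13.8 and 12.9 against 25.0, 24.8 and 24.2 FPKM.

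Cilium-linked and other kinesins showed single changes. KIF7, a regulator of Hedgehog signalling at the ciliary tip, was at 18.1, 16.7 and 15.6 FPKM in OV-BRCA1 and 20.5, 20.3 and 21.3 in NC samples, a change of -0.29 (SE 0.07, adjusted p = 0.0213), which was lost in 5 of 6 fits without 1 sample (adjusted p = 0.0507 to 0.0672), all but the fit without OV-BRCA1 replicate 1. KIF9 (-0.38, 95% interval -0.87 to 0.11) and KIF27 (-0.07, -0.45 to 0.30) did not pass. KIF24, which restrains cilium assembly at the mother centriole, was at 2.57, 2.94 and 3.10 against 4.26, 1.75 and 1.46 FPKM (0.23, adjusted p = 0.566). NC replicate 1 alone lay above the OV-BRCA1 samples, and without it KIF24 passed as higher, at 0.57 (adjusted p = 0.0204). KIF26A, a kinesin without ATPase activity that acts in signalling, was at 3.70, 4.001 and 3.89 against 6.95, 7.25 and 6.67 FPKM, a change of -0.71 (SE 0.07, adjusted p = 0.000826). KIF2A, a depolymerase at spindle poles and in interphase, rose from 10.8, 12.5 and 10.5 FPKM in NC to 15.9, 15.9 and 13.8 in OV-BRCA1 samples (0.40, SE 0.09, adjusted p = 0.0179), a call lost in 4 of 6 fits without 1 sample (adjusted p = 0.0559 to 0.0574), all but those without OV-BRCA1 replicate 3 or NC replicate 2. KIF21A was near 0 (0.03, 95% interval -0.25 to 0.31). KIF6, KIF12 and KIF19 were listed at 0 in all samples, and KIF17, KIF21B, KIF25 and KIF26B stayed below the filter, with 0.607 as the highest value of any kinesin not tested.

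In KIF20A and KIF2C the 2 leading transcripts varied more between the OV-BRCA1 replicates than their sum did. The same held for KIFC3-205 and KIFC3-206 in KIFC3. On average KIFC3-206 held 6.93% of the KIFC3 FPKM, below KIFC3-219 (19.4%) and others. In KIF20A, transcript KIF20A-201 was at 3.01, 18.6 and 19.3 FPKM in OV-BRCA1 and 27.1, 3.42 and 21.0 in NC samples, while KIF20A-205 was at 16.8, 0 and 0 against 10.99, 35.8 and 17.5. Each varied several-fold between replicates, yet their sum was 19.3 ± 0.64 against 38.6 ± 0.569 FPKM (SD, n = 3 each). In KIF2C the sum of KIF2C-201 and KIF2C-202 was 33.3 ± 2.03 against 44.8 ± 2.24 FPKM, and OV-BRCA1 replicate 1 had most of it on the other transcript than the remaining samples. In KIFC3 the same replicate held 28.6 FPKM on KIFC3-206 and 0.291 on KIFC3-205, and the sum of the pair was 28.3 ± 0.883 against 19.9 ± 3.47 FPKM. With the most abundant transcript in place of the gene sum, 7 mitotic kinesins fell and 8 kinesins lost their call. Of these, the log2 fold changes of KIF2C (-0.96), KIF2A (1.37), KIF13A (-0.45) and KIF7 (-0.36) were further from 0 than in the gene sums, those of KIF15 (-0.14) and KIF20A (-0.26) were nearer to it, and that of KIF3A was 0.004 (adjusted p = 0.0609 to 0.992 over the 8). The last, KIFC3, turned to -1.003 (adjusted p = 0.638). The other mitotic kinesins with 1 leading transcript gave that change in it: KIFC1-211 was at 13.9, 13.7 and 13.0 against 24.8, 25.8 and 25.5 FPKM, and KIF22-201 at 21.0, 21.97 and 18.4 against 35.7, 32.5 and 36.9. Short transcripts without a coding sequence added to some sums: KIF18B-201, a retained intron of 581 bases, held 28.6% of the KIF18B FPKM, at 3.10, 3.93 and 2.53 against 7.98, 6.9985 and 7.24. The main KIF18B transcript, KIF18B-202, was also separate, at 8.11, 8.73 and 8.06 against 13.8, 15.1 and 15.2 FPKM. The leading KIF23 transcript, KIF23-201, held 29.4% of the gene, at 16.8, 17.2 and 14.3 against 20.4, 21.6 and 24.2 FPKM, again without overlap. Other transcripts went the opposite way, also without overlap and not tested alone. KIF23-202, with 3.53% of the gene, was at 1.77, 3.06 and 7.65 FPKM in OV-BRCA1 and 0.0703, 0.427 and 0.770 in NC samples, and KIF20B-202, with 24.9% of its gene, was at 5.99, 3.30 and 2.23 against 0.0431, 1.46 and 0.008.

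**Figure D5:**
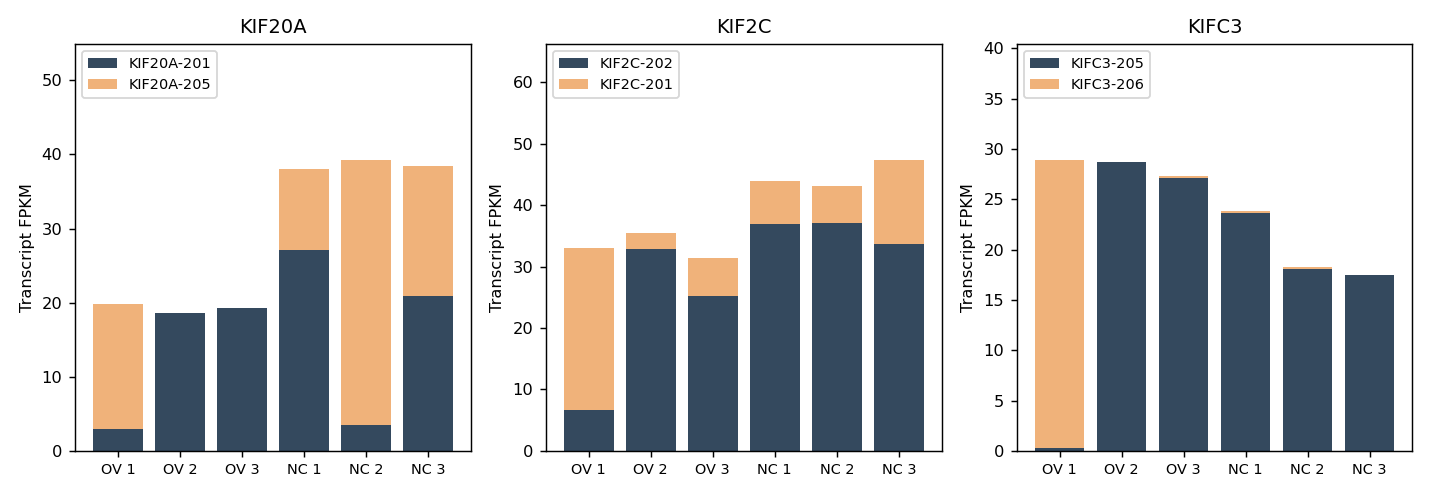
FPKM of the 2 leading transcripts of KIF20A, KIF2C and KIFC3 stacked in each sample (OV for OV-BRCA1). The split between the transcripts changes from sample to sample, while the stacked height stays near 19 (OV) and 39 (NC) in KIF20A.

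Some kinesins share exon bases with a gene on the other strand, and the use of strand in counting is not given in the sources used here. KIF20A shares 132 of its 3958 exon bases with BRD8, which was at 28.3, 26.4 and 28.6 FPKM in OV-BRCA1 and 48.9, 53.7 and 51.2 in NC samples. KIF7 shares 589 of 5001 bases with TICRR, at 18.5, 18.8 and 16.6 against 27.2, 26.1 and 25.3 FPKM. KIF4A shares 77 of 4533 bases with PDZD11, at 50.1, 46.0 and 40.4 against 58.6, 55.8 and 57.5 FPKM. BRD8, TICRR and PDZD11 were lower without overlap, like the kinesin beside them. KIFC2 shares 791 of 4447 bases with FOXH1, a low gene at 0.434, 0.600 and 0.366 against 1.35, 0.930 and 0.615 FPKM. KIF2A shares 428 of 4774 bases with IPO11 on the same strand, at 8.71, 7.42 and 7.92 against 6.51, 5.78 and 6.78 FPKM. These partners also lay on the side of their kinesin without overlap, and the part of any of the 5 in the kinesin's change was not tested. KIF20A shares a further 68 bases with CDC23, KIF18A 61 with METTL15 and KIF9 178 with KLHL18, and the groups of these partners overlapped. KIF24, whose groups overlapped, shares 143 bases with UBAP1, at 26.2, 27.3 and 28.1 against 20.0, 20.4 and 21.6 FPKM. Over all genes tested, 50.8% had groups without overlap. Without the members that share bases with another protein-coding gene, 8 of 9 mitotic kinesins fell (median -0.54), and 4 of 11 transport kinesins fell and 1 rose. This count kept KIF23 and KIF2C, which share 231 and 175 bases with the antisense genes AC027237.3 and AL592166.1. AC027237.3 was at 1.43, 1.42 and 2.05 against 2.83, 3.17 and 3.08 FPKM. AL592166.1 was at 0.648, 0.108 and 1.02 against 1.14, 1.20 and 1.16. Both were lower without overlap, and their part was not tested.

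CENPE and STARD9, kinesins that the symbol rule leaves out, were also lower. CENPE, the kinetochore motor that brings chromosomes to the equator, was at 3.61, 3.73 and 3.42 FPKM in OV-BRCA1 and 5.17, 5.34 and 5.25 in NC samples, a change of -0.45 (limma adjusted p = 0.00453). STARD9, a motor of the pericentriolar material, was at 0.895, 1.10 and 1.01 against 1.73, 1.89 and 1.57 FPKM (-0.45, adjusted p = 0.0115). Both fell with separate groups.

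A list of 26 tested mitotic genes held partners of the motors and also general genes of mitosis such as CDK1 and CCNB1. Of these 26, 17 fell (65.4%, against 18.9% of all genes) and none rose, with a median of -0.55. TOP2A, the topoisomerase that untangles chromosomes (-0.83, adjusted p = 6.76e-05), and the kinetochore protein CENPF (-0.83, adjusted p = 0.000359) were among them. So were cargo or binding partners of motors above: PRC1, which KIF4A and KIF20A bind, with 66.9 ± 2.39 FPKM in OV-BRCA1 against 102.7 ± 3.23 in NC samples (SD, n = 3 each; -0.61, adjusted p = 0.000338), RACGAP1, which forms centralspindlin with KIF23 (-0.54, adjusted p = 0.00147), AURKB (-0.59, adjusted p = 0.00091) and INCENP (-0.80, adjusted p = 0.0018) of the passenger complex carried by KIF20A, CIT, recruited by KIF14 (-0.79, adjusted p = 0.00211), and TPX2, which binds KIF11 and KIF15 (-0.46, adjusted p = 0.000411). The 9 that did not pass included AURKA (-0.65, adjusted p = 0.26) and ECT2 (-0.13, adjusted p = 0.471). Among the 9, BIRC5, also of the passenger complex, had a positive value (0.23, adjusted p = 0.42). So had MAD2L1 (0.16, adjusted p = 0.225) and BUB1 (0.08, adjusted p = 0.315). Of 21 promoters of this list, 17 held TTTGAA (81.0%) and 18 CCAAT (85.7%).

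Other genes of the cell cycle and of transport gave mixed counts, to be read against the 18.9% of all genes that fell and the 16.4% that rose. Of 15 G1/S genes 6 fell (40.0%) and 4 rose (26.7%; median -0.03), with the licensing factor CDC6 at 0.55 (adjusted p = 0.000524), RRM2 at 0.26 (adjusted p = 0.00586) and PCNA at -0.52 (adjusted p = 0.00762). Of 13 subunits and partners of the DREAM and MYB-MuvB complexes, the pocket protein RBL2 fell (-0.71, adjusted p = 0.000231) and E2F5 rose (0.79, adjusted p = 0.00208), while FOXM1 (0.17, adjusted p = 0.832) and MYBL2 (-0.01, adjusted p = 0.871) did not pass. Of 18 tested cargo adaptors and light chains 3 fell (16.7%) and none rose (median -0.08). These were MAPK8IP3 (JIP3; -1.02, adjusted p = 0.00246) and MAPK8IP2 (JIP2; -0.48, adjusted p = 0.00343), scaffolds that bind kinesin-1, and the light chain KLC4 (-0.92, adjusted p = 0.00147). The kinesin-2 subunit KIFAP3 was at -0.10 (adjusted p = 0.292). Of 23 dynein and dynactin genes, which form the opposite motor, 7 fell (30.4%) and 3 rose (13.0%; median -0.17), with DCTN2 at -0.59 (adjusted p = 0.000554), DYNC1LI2 at -0.44 (adjusted p = 0.00167) and DYNLRB1 at -0.35 (adjusted p = 0.00226). Of 13 tubulins, 4 fell (30.8%) and 2 rose (15.4%), with a median of 0.06. Among them were TUBA1A at -0.41 (adjusted p = 0.00369), TUBG1 at -0.26 (adjusted p = 0.00422) and TUBB2A at 0.37 (adjusted p = 0.0055).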

How the data were processed

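mRNA of SiHa cells was sequenced in 3 OV-BRCA1 and 3 NC samples, whose labels gave the group and the replicate number. The authors deposited FPKM per transcript, and the submitters' processing notes name FastQC, HISAT2 and hg38. The quantification tool and the use of strand are not given in the sources used here. The 6 sample files held the same values as the series matrix, with 199167 transcripts of 58174 genes, and no counts. Only 33.6% to 37.5% of low values lay within 0.1 of a whole fragment, so whole reads were not recovered. The study's supplement lists total reads per sample, and the mapped fragments behind the FPKM were estimated here from the low values. Intervals cover the spread between samples.

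Transcripts were named by GENCODE release 29 (198868 found) and their FPKM summed per gene. The 16321 genes with 0.5 FPKM or more in 3 or more samples were tested with limma (trend, not robust) on log2(FPKM + 1), a scale that understates changes of low genes. P-values were adjusted by Benjamini-Hochberg over all genes tested, and a call needed an adjusted p below 0.05. The adjusted p-values of the report come from this fit unless another is named. Members, role lists and partner lists were chosen with earlier results of these data known, so no p-value was computed over a list. Every member was named, with values in each sample for those called, and from each partner list the up to 3 called genes with the smallest adjusted p were named. AURKA, ECT2, BIRC5, MAD2L1, BUB1, FOXM1, MYBL2, KIFAP3, INCENP, CIT, RACGAP1, AURKB and TPX2 were named after their values were seen, as were the partners sharing exon bases. Promoters (RefSeq, GRCh38.p14) were matched by symbol. Planned protein features were not analysed here.

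The alternatives were a pseudocount of 0.1, no filter, an FPKM of at least 1 in all samples, other scalings, robust estimation, a replicate block, leaving out each sample, the most abundant transcript, an added fold criterion and other group memberships. Leaving out members with shared exon bases was chosen after seeing the data. R 4.3.3, limma 3.58.1, Python 3.11.15, numpy 2.4.6, pandas 2.3.3 and matplotlib 3.10.9 were used.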

Additional observations from a re-analysis of the deposited data

How the results depend on the processing

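The 10 falls among mitotic kinesins held in each fit without 1 sample, where their median log2 fold change was -0.59 to -0.52. Under median-of-ratios scaling, scaling to nuclear protein-coding genes, a pseudocount of 0.1 and robust estimation, all 31 tested kinesins kept direction and side of the threshold, as did 28 of 28 with an FPKM of at least 1 in all samples. The mitotic median moved to -0.60 with a pseudocount of 0.1 and -0.62 with the most abundant transcript. The transport median moved to -0.13 with an FPKM of at least 1 in all samples, -0.22 with the most abundant transcript and -0.068 with nuclear protein-coding scaling, and was -0.074 to -0.034 without 1 sample. Transport kinesins called lower numbered 3 to 4 without 1 sample (3 without OV-BRCA1 replicate 1, OV-BRCA1 replicate 3 or NC replicate 3). With the most abundant transcript 3 transport kinesins fell and 0 rose, KIF3A turned to 0.004 (adjusted p = 0.992) and KIFC3 to -1.003 (adjusted p = 0.638), and over 15614 genes 1606 fell and 1685 rose in place of 3090 and 2674. The cause was not tested. With the added fold criterion, 1 mitotic kinesin was lower, 0 transport kinesins were lower and 0 higher, and 179 genes were lower and 472 higher in all. KIF20A joined KIFC1 past that criterion without OV-BRCA1 replicate 1 (-1.08), without NC replicate 1 (-1.03), with a pseudocount of 0.1 (-1.01) and with nuclear protein-coding scaling (-1.02), and KIFC1 itself missed it with the most abundant transcript (-0.86). Replicate numbers did not pair the samples (correlations of deviations -0.024, 0.025 and 0.014), and with a replicate block 3 transport kinesins fell, the calls of KIF3A, KIF5B and KIF7 being lost (adjusted p = 0.0695, 0.0551 and 0.0595). KIF3A was also not called without the filter on low values (adjusted p = 0.0783). The medians were -0.53 with KIF2A and KIF24 added to the mitotic and -0.03 with KIF21A and KIF21B added to the transport kinesins. The effect of depth on single intervals was not tested.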
